A study of Mus musculus with 12 samples.

Results

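The genes described here are the ligands and receptors of 4 signalling systems that steer growing axons: the semaphorins with their plexin and neuropilin receptors, the ephrins with their Eph receptors, the Slits with the Robo receptors, and the netrins with Dcc and the Unc5 receptors. They were chosen by gene symbol alone: every row of the deposited expression table that starts with a family prefix (Sema, Plxna to Plxnd, Epha, Ephb, Efna, Efnb, Robo, Unc5) or carries one of the names Slit1 to Slit3, Ntn1, Ntn3, Ntn4, Ntng1, Ntng2, Dcc, Nrp1 and Nrp2. Of 73 matching rows, 2 antisense transcripts of Plxna4 were left out, so that 71 of 29454 genes remain. No row carries the name Ntn3, so it was not analysed here. Unc50 and Unc5cl enter through the prefix only and are not netrin receptors.

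Guidance molecules are read by the growth cone, the moving tip of an axon, through receptors that attract or repel it. Secreted class 3 semaphorins repel most axons by binding a neuropilin that is paired with a plexin, and the membrane-bound semaphorins mostly bind plexins directly. Ephrin-A ligands are anchored to the membrane by a lipid and ephrin-B ligands span it, and both bind Eph receptor kinases on a touching cell. Slit proteins repel axons through Robo receptors, and netrin-1 attracts axons through Dcc and repels them through Unc5 receptors. In the hippocampus these systems are known for sorting the mossy fibres of dentate granule cells and the entorhinal and commissural axons into layers, a process that runs through the first weeks after birth.

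RNA came from the hippocampus of mouse pups of strain C57/BL6, and the groups were littermates. Wild-type pups with neither transgene gave 3 libraries (WT). A further 3 libraries (CAMK) are from carriers of CaMKIIα-tTA, a driver in which the promoter of the CaMKIIα gene of forebrain excitatory neurons makes the tetracycline transactivator. The remaining 6 libraries (CX3CL1-ct) are from carriers of that driver and of Tg-CX3CL1-ct, a transgene that encodes the C-terminal end of the membrane chemokine CX3CL1. The transgenic line had been backcrossed to C57BL/6J for 6 generations before it was crossed with the driver line. Since CX3CL1-ct pups carry the driver too, CAMK is their control for the transgene, and WT differs from them by both. The sample labels give postnatal day 4, and the design text of the series gives postnatal day 0. The labels are silent on sex, litter and batch and on whether the libraries are from separate animals, so the p-values cover no more than the spread among these samples.

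Expression is in FPKM (fragments counted per unit of transcript length and of library size), a unit that corrects for transcript length, so that levels of different genes can be set side by side. A library's FPKM summed to 552481 to 659362, 15318 to 15861 genes reached 1 FPKM, and the 71 guidance genes summed to 959 to 1166 FPKM. Counts are not in the table, so the depth behind a value is not known from it. The libraries of a group were not equally alike. CX3CL1-ct 1, 2 and 3 were closer to each other (standard deviation of the log2 difference 0.136 to 0.150 over 9148 genes) than any other pair within a group (0.164 to 0.378). WT 3 lay between WT 1 and WT 2 in 56 of the 68 guidance genes tested (82.4%, against 51.3% of all 16503 genes tested), and CAMK 3 lay between CAMK 1 and CAMK 2 in 47 (69.1%, against 54.4%). Markers of the hippocampal neurons (14 of 14 in the table, none at 0 in every library) summed to 254 to 414 FPKM in WT, 274 to 328 in CAMK and 148 to 376 in CX3CL1-ct, with the lowest sum in CX3CL1-ct 5. Markers of neighbouring regions were present in some of the libraries and are given beside the genes that moved with them.

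Nearly every member of the 4 systems was expressed in the neonatal hippocampus. In all, 63 of the 71 genes reached at least 1 FPKM in every library and 70 were above 0 in every library. The mean over the 12 libraries was at least 10 FPKM in 38 genes, at least 20 in 18 and under 1 in 6, and the median of these means was 10.5 FPKM. At the top stood Efnb3, which encodes a transmembrane ephrin (70.3 FPKM), Epha4, an Eph receptor that binds ephrins of both classes (64.0), Nrp1 and Plxna1, which form semaphorin receptors (46.2 and 46.1), Epha5 (42.3) and Robo2 (40.4). The lowest were Epha1 (0.080 FPKM), Unc5cl (0.130) and Epha2 (0.555). These 3 did not reach 1 FPKM in 3 libraries and were not tested with the others.

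**Figure D1:**
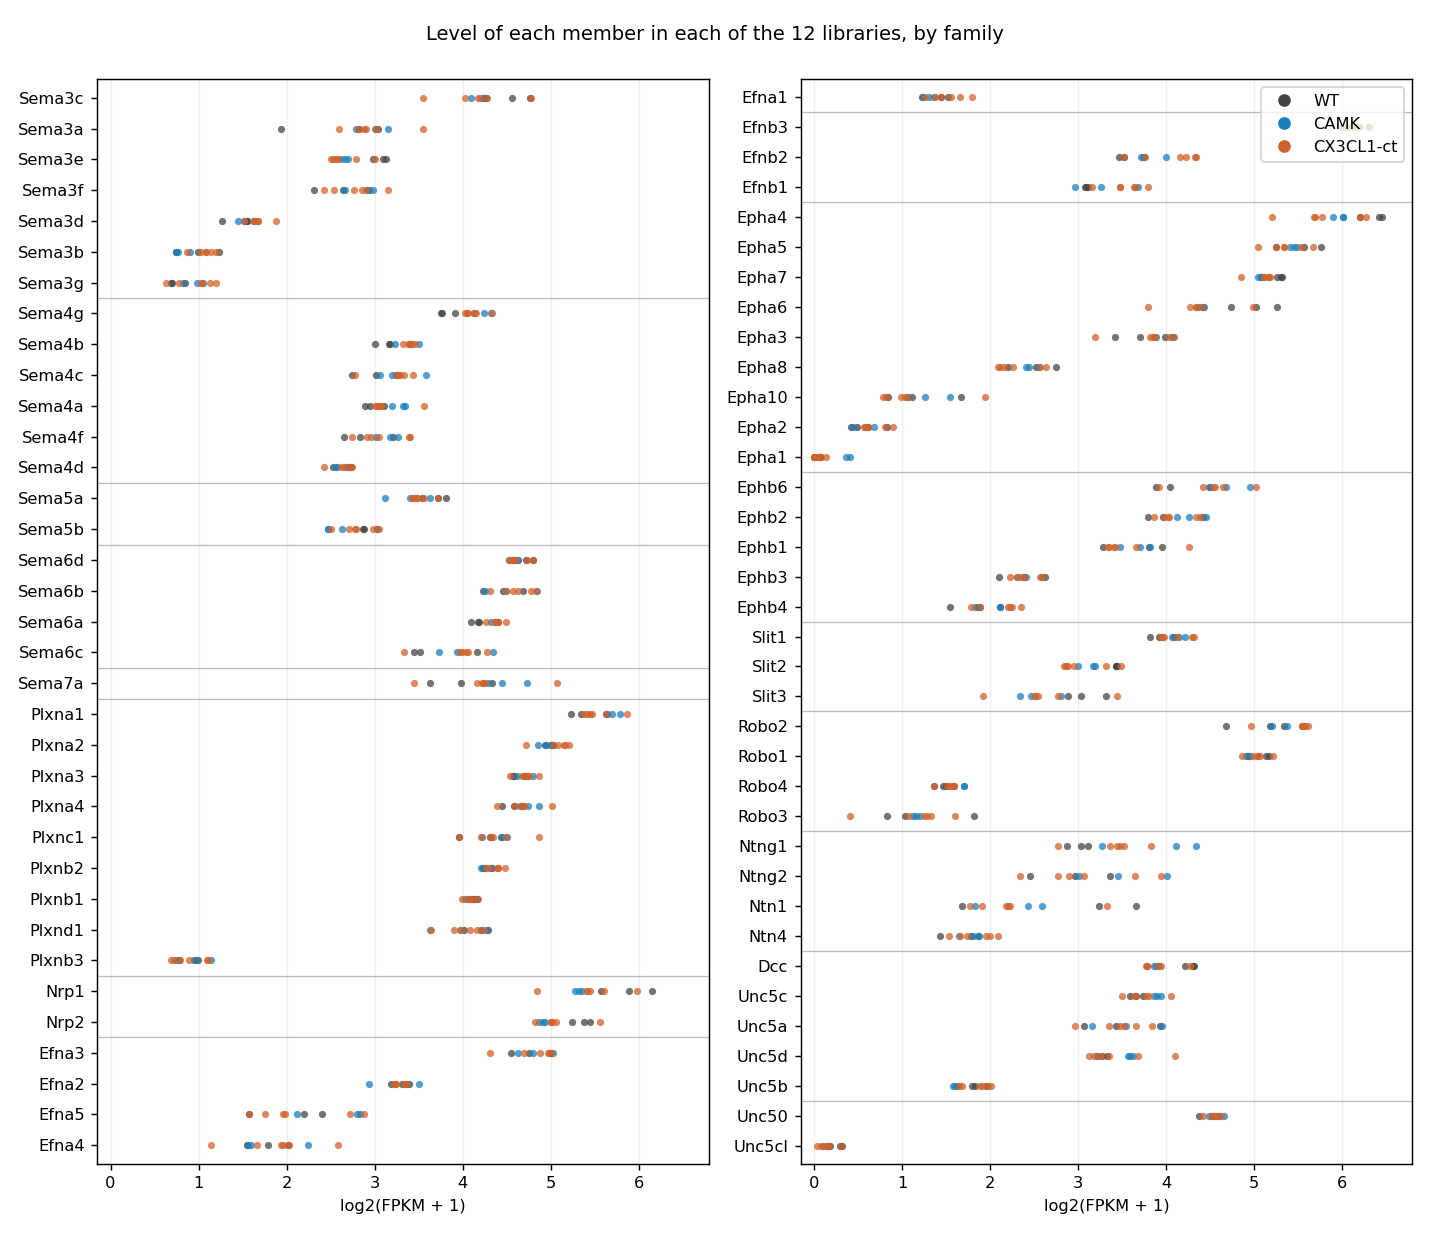
Level of each of the 71 genes in each of the 12 libraries as log2(FPKM + 1) (x axis), one row per gene, grouped by family and ordered within a family by the mean, with 1 point per library coloured by group. Efnb3 and Epha4 lie furthest to the right and Epha1 next to 0, and for most genes the points of the 3 groups lie on top of each other.

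Among the ligands, the 7 class 3 semaphorins summed to 43.8 ± 1.003 FPKM in WT (SD, n = 3), 39.4 ± 1.003 in CAMK (n = 3) and 40.1 ± 3.86 in CX3CL1-ct (n = 6). Sema3c was the largest of them and Sema3g, best known from vessels, the smallest (0.891 FPKM over all libraries). The 4 class 6 semaphorins, transmembrane ligands of the plexin-A receptors, summed to 75.5 ± 9.60, 80.7 ± 7.11 and 82.1 ± 4.70 FPKM in the same order of groups, and the 6 of class 4 to 46.6 ± 4.21, 57.9 ± 4.19 and 55.2 ± 2.96. The ephrin-B genes summed to 89.6 ± 0.559, 93.7 ± 10.7 and 95.99 ± 4.69 FPKM, of which Efnb3 made up 74.9%, and the ephrin-A genes to 42.7 ± 4.24, 45.4 ± 5.44 and 44.7 ± 5.29, of which Efna3 made up 61.2%. Slit1 was the most abundant Slit (15.9 FPKM over all libraries, 53.4% of the 3 genes), ahead of Slit2 (8.11) and Slit3 (5.83). Netrin-1 itself was low in most libraries and its level is taken up below.

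Among the receptors, the 9 EphA genes summed to 215 ± 22.7 FPKM for WT, 179 ± 4.002 for CAMK and 170 ± 30.3 for CX3CL1-ct. The 9 plexins summed to 190 ± 4.84, 202 ± 10.7 and 200 ± 11.6 FPKM. The 2 neuropilins summed to 98.4 ± 14.6, 67.9 ± 1.66 and 77.2 ± 16.2 FPKM, and the 4 Robo genes to 69.2 ± 9.89, 73.9 ± 5.51 and 78.8 ± 7.65. Robo2 and Robo1, which are neuronal Slit receptors, held most of the Robo sum, whereas Robo3, known from commissural axons, and Robo4, known from endothelium, stayed at 1.32 and 1.92 FPKM over all libraries. Dcc and the 4 Unc5 netrin receptors summed to 51.9 ± 4.55, 52.0 ± 2.95 and 49.8 ± 5.53 FPKM, with Dcc the highest of the 5 (15.1 FPKM over all libraries) and Unc5b the lowest (2.48).

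The guidance genes varied more between libraries than the median gene of their level. Among genes with a mean of at least 5 FPKM, the highest library exceeded the lowest by a median of 1.67 times in the 52 guidance genes and by 1.41 times in all 10250 genes. It did so by at least 2 times in 14 of the 52 (26.9%) and in 966 of the 10250 (9.42%). CX3CL1-ct 5 was the lowest library for 23 of the 68 genes and the highest for 12. WT 2 was the lowest for 13 and WT 1 for 10. These counts describe the libraries and were not tested.

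Differences between groups were tested with limma on log2(FPKM + 1) in 1 model of all 12 libraries, with Benjamini-Hochberg adjusted p-values over the 16503 genes that reached 1 FPKM in at least 3 libraries, and a threshold of 0.05. All differences below are on this scale, on which changes of weakly expressed genes come out too small. No guidance gene passed the threshold in any comparison: 0 of 68 in CX3CL1-ct against CAMK (0.0606% of all genes passed), 0 of 68 in CX3CL1-ct against WT (0.454% of all genes) and 0 of 68 in CAMK against WT (0.358% of all genes). The lowest adjusted p from limma among the 68 was 0.725, 0.0992 and 0.0713. At an unadjusted p under 0.05 there were 2 genes for the first comparison (2.94%, against 6.37% of all genes), 14 for the second (20.6%, against 12.3%) and 17 for the third (25%, against 12.4%). Of the 14, 6 were higher and 8 lower than in WT, and of the 17, 8 were higher and 9 lower. Both comparisons with WT rest on the same 3 WT libraries.

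The precision was enough to bound most of the differences within a 2-fold change of FPKM + 1, but for CAMK against WT not within 1.5-fold. The 95% interval of the difference lay within a 2-fold change either way in 65, 65 and 59 of the 68 genes in the order above, and within 1.5-fold in 57, 46 and 33. The median half-width of the interval was 0.30, 0.30 and 0.35 on the log2 scale. The median difference of the 68 genes in the same order was -0.02, 0.07 and 0.07, beside 0.04, 0.04 and 0.00 over all genes tested. Under median-of-ratios scaling of the libraries these member medians were -0.06, 0.04 and 0.06.

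**Figure D2:**
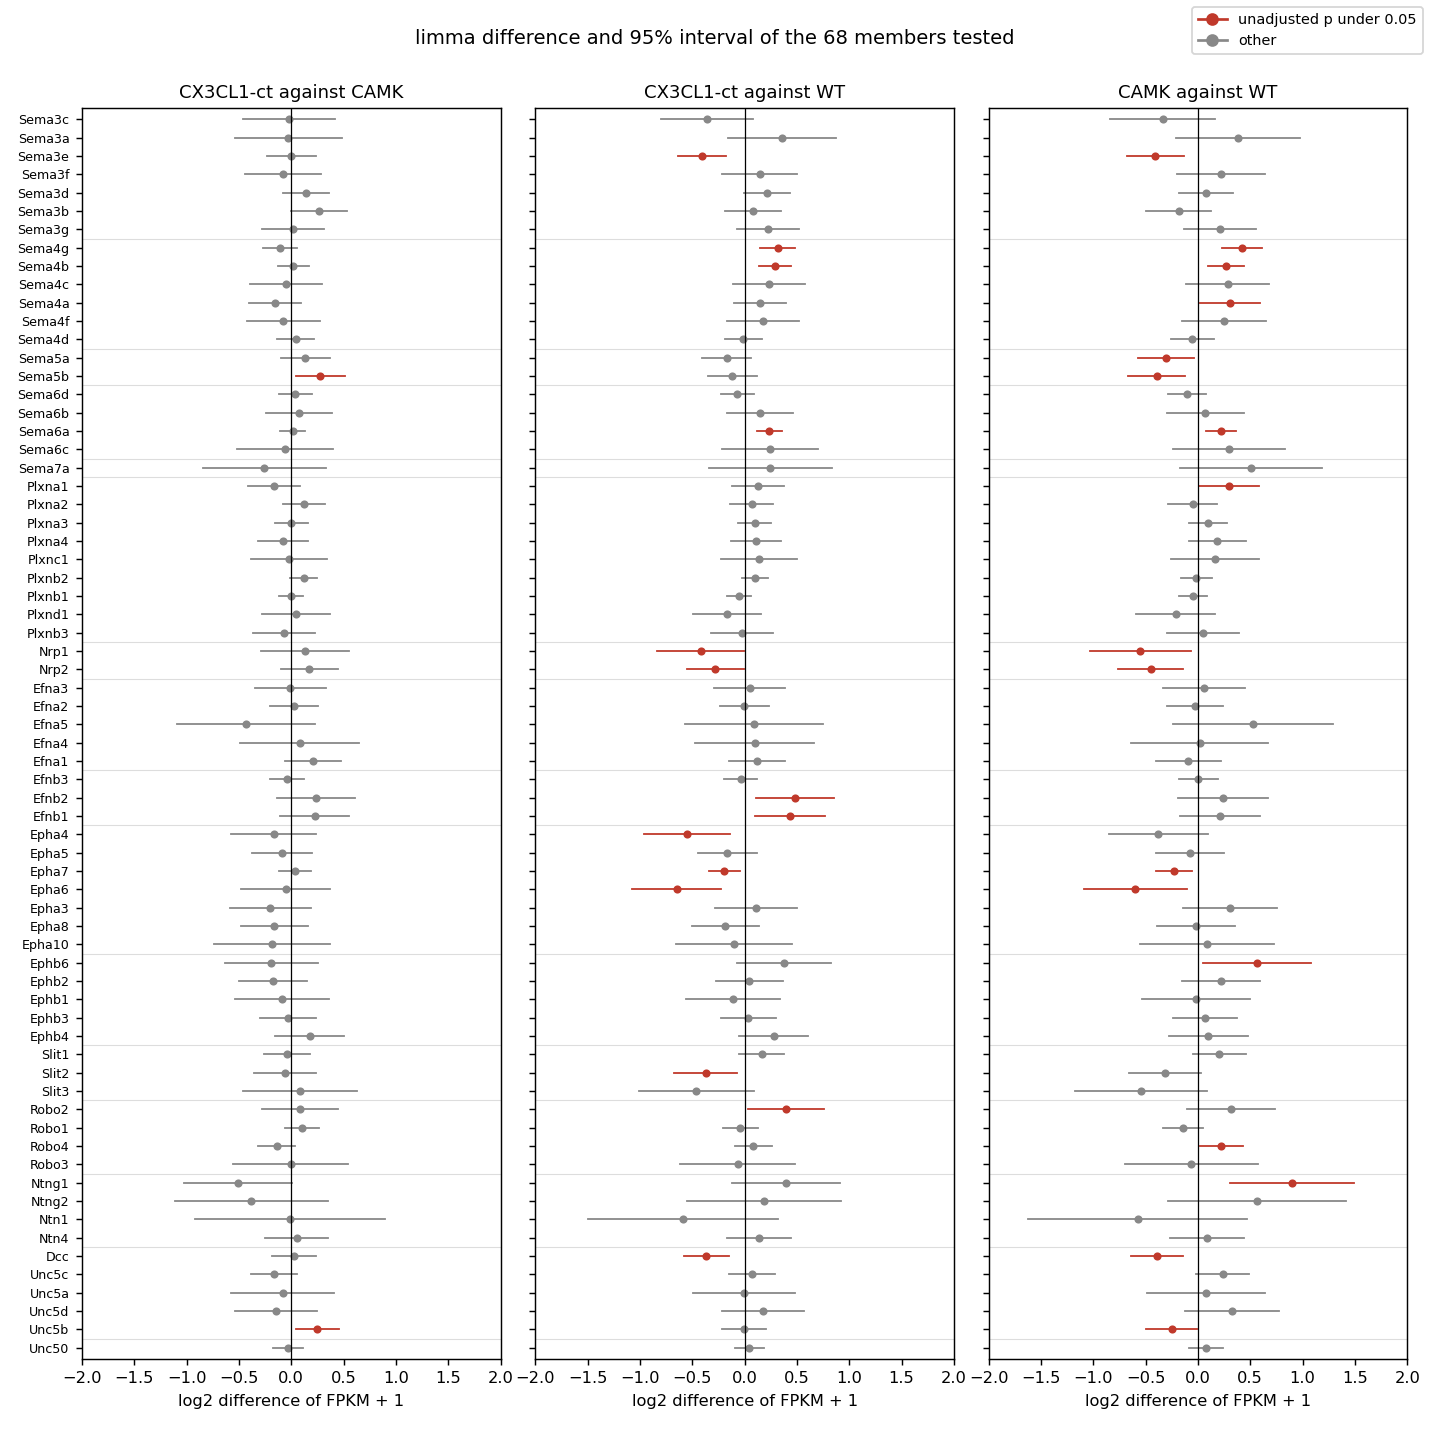
Difference in log2(FPKM + 1) (x axis) with its 95% interval from limma for the 68 genes tested, in the 3 comparisons (panels), with genes of 1 family between grey lines and unadjusted p under 0.05 in red. Red genes number 2, 14 and 17 from left to right, and none has an adjusted p under 0.05.

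The genes with lower means in both transgenic groups than in WT, none past the threshold, included receptors of the netrin, semaphorin and ephrin systems. Dcc, the receptor through which netrin-1 attracts axons (mm10 chr18:71253634-72351069), read 18.8, 17.5 and 18.9 FPKM in WT 1 to 3 and 13.5, 13.8 and 14.1 in CAMK 1 to 3. In CX3CL1-ct its lowest, median and highest values were 12.7, 13.4 and 18.3 FPKM. Every CAMK library was below every WT library, and so were all CX3CL1-ct libraries but number 4, which held the 18.3. The difference was -0.39 for CAMK against WT (SE 0.11, limma adjusted p = 0.181) and -0.37 for CX3CL1-ct against WT (SE 0.098, limma adjusted p = 0.146).

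Both neuropilins, the ligand-binding receptors of class 3 semaphorins, showed this order. Nrp2 (chr1:62703285-62818695) read 42.8, 37.0 and 40.7 FPKM in WT and 28.3, 29.1 and 29.6 in CAMK, and 27.4, 31.3 and 46.2 as lowest, median and highest in CX3CL1-ct. Nrp1 (chr8:128358604-128503363) read 70.1, 46.7 and 58.2 FPKM in WT, 37.9, 39.0 and 39.8 in CAMK, and 27.8, 42.1 and 62.0 in CX3CL1-ct. For both genes the CAMK libraries lay close together and below WT, and the highest CX3CL1-ct library, again number 4, lay within or above the WT range. CAMK differed from WT by -0.45 in Nrp2 (SE 0.14, limma adjusted p = 0.223) and by -0.55 in Nrp1 (SE 0.22, limma adjusted p = 0.341). For CX3CL1-ct against WT the differences were -0.28 (SE 0.12, limma adjusted p = 0.395) and -0.42 (SE 0.19, limma adjusted p = 0.404). An exon of Nrp1 overlaps the microRNA gene Mir1903 on the same strand.

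Sema3e, a class 3 semaphorin that binds Plxnd1 without a neuropilin (chr5:14025276-14256689), read 6.92, 7.74 and 7.52 FPKM in WT, 5.13, 5.51 and 5.36 in CAMK, and 4.67, 4.94 and 7.05 as lowest, median and highest in CX3CL1-ct. All CAMK values and 5 of 6 CX3CL1-ct values were below WT, and CX3CL1-ct 4 held the highest. The difference was -0.41 in both comparisons with WT (limma adjusted p = 0.199 for CAMK and 0.139 for CX3CL1-ct). Its receptor Plxnd1 differed from WT by -0.21 in CAMK and -0.17 in CX3CL1-ct (limma adjusted p = 0.674 and 0.666). Sema3c differed by -0.34 and -0.36 (limma adjusted p = 0.608 and 0.491).

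Of the EphA receptor kinases, Epha6 (chr16:59653483-60605531) read 37.4, 25.8 and 31.5 FPKM in WT, 20.5, 19.8 and 20.7 in CAMK, and 12.9, 19.3 and 30.7 as lowest, median and highest in CX3CL1-ct. Epha4 (chr1:77367185-77515088), a receptor of ephrin-B3 that mediates repulsion, read 86.4, 72.6 and 84.3 FPKM in WT, 63.7, 58.5 and 63.5 in CAMK, and 36.01, 52.1 and 76.2 in CX3CL1-ct. Epha7 (chr4:28813131-28967499) read 38.9, 37.4 and 38.5 FPKM in WT, 31.9, 32.7 and 32.8 in CAMK, and 27.9, 34.2 and 35.2 in CX3CL1-ct. CAMK lay below WT without overlap in all 3 receptors, and CX3CL1-ct did so in Epha7 only. The differences of Epha6, Epha4 and Epha7 from WT were -0.60, -0.38 and -0.23 in CAMK (limma adjusted p = 0.311, 0.523 and 0.262), and -0.65, -0.55 and -0.20 in CX3CL1-ct (limma adjusted p = 0.191, 0.264 and 0.275). An exon of Epha6 overlaps Gm9017 on the other strand, and the strand setting of the counting is not given in the sources used here.

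The Slit ligands differed by gene. Slit2 read 9.77, 9.83 and 9.79 FPKM in WT, 6.99, 7.996 and 8.15 in CAMK, and 6.17, 6.58 and 10.2 as lowest, median and highest in CX3CL1-ct. Slit3 read 8.94, 6.40 and 7.21 FPKM in WT, 5.97, 4.06 and 4.54 in CAMK, and 2.78, 4.79 and 9.91 in CX3CL1-ct. In both genes CAMK lay below WT without overlap, and CX3CL1-ct 4 was the highest of all 12 libraries. Slit1 was not lower, with a difference of 0.20 in CAMK and 0.16 in CX3CL1-ct against WT (limma adjusted p = 0.522 and 0.536).

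**Figure D3:**
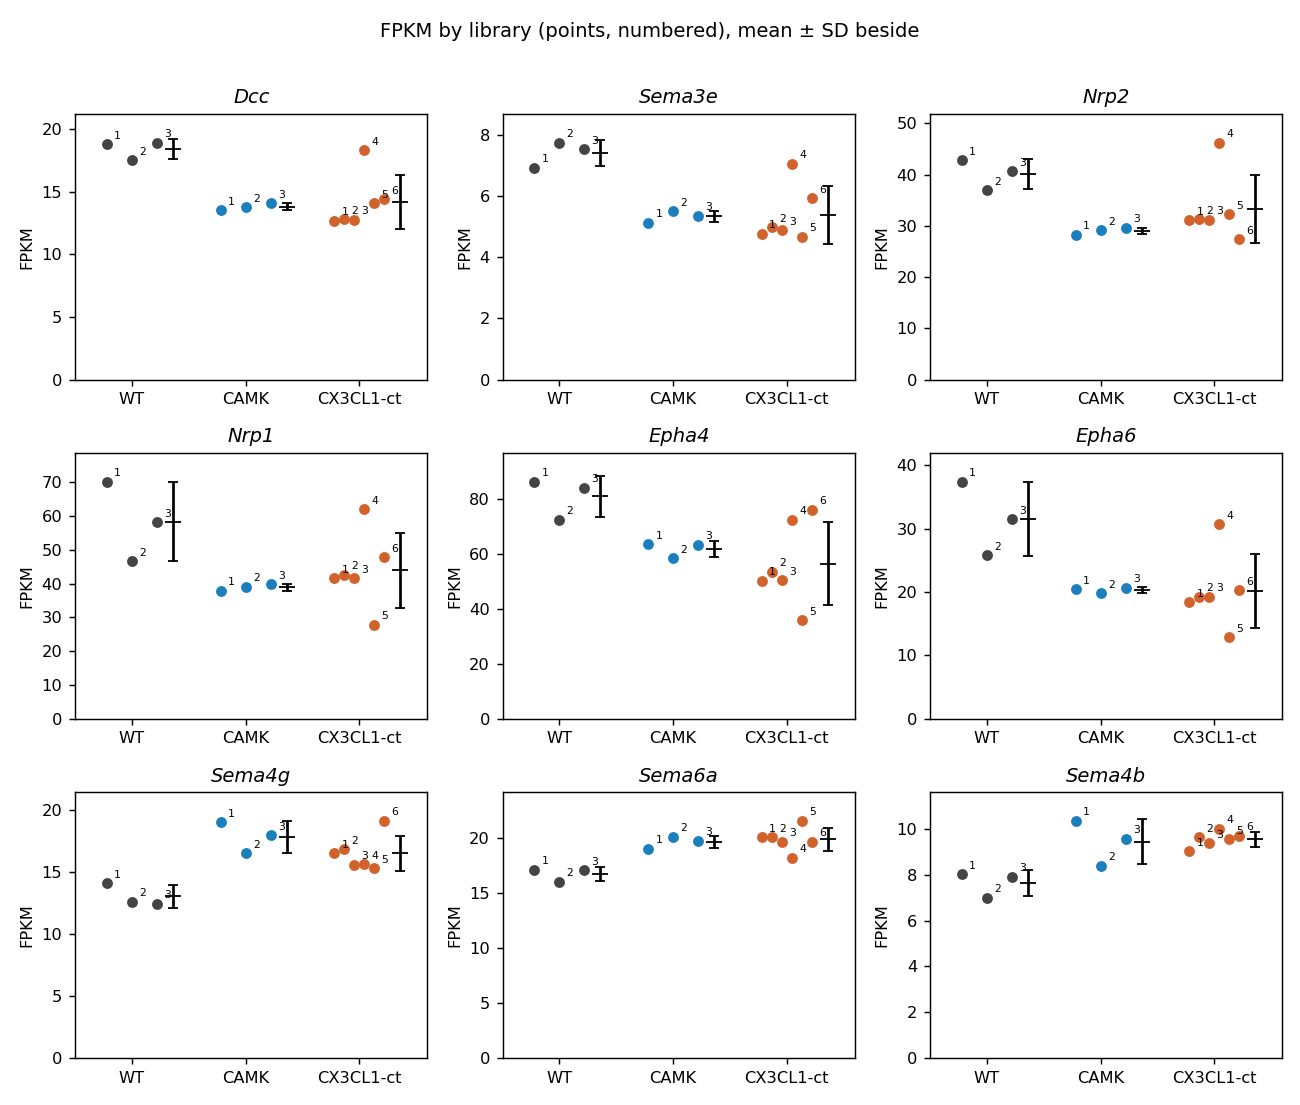
FPKM of 9 guidance genes in each library (points, numbered by replicate) with the group mean ± SD beside them, for 3 WT, 3 CAMK and 6 CX3CL1-ct libraries. In Dcc, Sema3e and Nrp2 the CAMK libraries and 5 CX3CL1-ct libraries lie below all WT libraries and CX3CL1-ct 4 does not, whereas Sema4g, Sema6a and Sema4b lie lowest in the 3 WT libraries.

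Library CX3CL1-ct 4 thus lay within or above the WT range for Dcc, Nrp1, Nrp2, Epha6, Sema3e, Slit2, Slit3 and Sema3c. Without it, limma called 4 guidance genes in CX3CL1-ct against WT (Dcc, Epha6, Nrp2 and Sema3e, all lower, with 0.927% of all genes called) and 2 in CAMK against WT (Dcc and Nrp2, both lower, 0.533% of all genes), since its distance from the other CX3CL1-ct libraries also enters the shared estimate of spread. Without it Dcc differed between CX3CL1-ct and WT by -0.44 (limma adjusted p = 0.00761), Sema3e by -0.48 (0.0214) and Epha6 by -0.78 (0.0340). CX3CL1-ct 4 held the highest CX3CL1-ct value of each of these genes, so leaving it out had to make their differences more negative. It is singled out here by the same values, so these p-values are no independent support. No other single omission gave a call in CX3CL1-ct against WT. Without CX3CL1-ct 5, 0 guidance genes were called there (0.957% of all genes were). CX3CL1-ct 5 held the lowest CX3CL1-ct values of Nrp1, Epha4, Epha6, Slit3, Sema3c and Sema3e, but not of Dcc, Nrp2 or Slit2. It was further from CX3CL1-ct 1 to 3 (standard deviation of the log2 difference 0.3145 to 0.341) than CX3CL1-ct 4 was (0.209 to 0.222). CX3CL1-ct 4 was also nearest to WT for 2 hippocampal markers, chosen after their values were seen. Zbtb20 is a transcription factor of hippocampal pyramidal and granule neurons and read 60.0 to 65.8 FPKM in WT, 34.3 to 36.4 in CAMK and 57.2 in CX3CL1-ct 4, and 24.7 to 43.1 in the other CX3CL1-ct libraries. Prox1, a granule neuron factor, read 10.6 to 14.9 FPKM in WT, 7.32 to 10.5 in CAMK, 13.2 in CX3CL1-ct 4 and 4.78 to 10.98 in the other CX3CL1-ct libraries. The hippocampal list as a whole did not share this order: 6 of its 14 markers lay below WT in all CAMK libraries and none above, 2 lay below WT in all CX3CL1-ct libraries and none above, and the mean of 4 was higher in CAMK than in WT. In bulk tissue, fewer cells of a type and less RNA per cell cannot be told apart, and the part of cell composition in these differences was not tested.

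The replicate numbers paired the CAMK and WT libraries by their deviations from the group means. With the number as a block in the model, limma called 9 of the 68 guidance genes in CAMK against WT (2.97% of all genes tested). Of these 9, 7 were lower in CAMK: Dcc and Nrp2 (adjusted p = 0.0194 each), Sema3e (0.0253), Epha6 (0.0397), Epha4 (0.0437), Slit3 (0.0486) and Epha7 (0.0499). Sema4g (0.0248) and Unc5d (0.0369) were higher. These calls are absent without the block, where the same genes have a limma adjusted p of 0.0713 to 0.575. The block left the differences between CAMK and WT unchanged (Dcc -0.39 and Sema4g 0.42 either way), so the calls came through the estimate of spread. CX3CL1-ct libraries whose number has no partner dropped out of that estimate, while CX3CL1-ct 1, 2 and 3, the closest to each other, stayed in it. The part of pairing and of the dropped libraries in these calls was not tested. In the comparisons of CX3CL1-ct, whose correlations with same-numbered libraries differed in sign, the block gave 1 call against CAMK (1.04% of all genes) and 8 against WT (3.27%).

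Of the 68 genes, 3 lay above WT in every transgenic library (4.41%, against 2.71% of all genes tested), a share not far from that of all genes. All 3 encode transmembrane semaphorins, but the other semaphorins of classes 4 to 6 did not show this order. Both class 5 genes, Sema5a and Sema5b, had lower means than WT in both transgenic groups. Sema4g, a class 4 semaphorin known to bind Plxnb2 (chr19:44989101-45003397), read 14.1, 12.6 and 12.5 FPKM in WT, 19.1, 16.5 and 17.98 in CAMK, and 15.3, 16.1 and 19.2 as lowest, median and highest in CX3CL1-ct. Sema6a, a ligand of Plxna2 and Plxna4, read 17.1, 16.0 and 17.1 FPKM in WT, 19.1, 20.2 and 19.8 in CAMK, and 18.2, 19.9 and 21.6 in CX3CL1-ct. Sema4b read 8.04, 7.00 and 7.93 FPKM in WT, 10.4, 8.40 and 9.58 in CAMK, and 9.03, 9.60 and 10.03 in CX3CL1-ct. In these 3 genes all 9 transgenic libraries, CX3CL1-ct 4 included, were above all 3 WT libraries. For CAMK against WT the differences of Sema4g, Sema6a and Sema4b were 0.42, 0.22 and 0.27 (limma adjusted p = 0.0713, 0.183 and 0.190). For CX3CL1-ct against WT they were 0.32, 0.23 and 0.29 (limma adjusted p = 0.104, 0.0992 and 0.104). Of the 6 class 4 semaphorins, 5 were higher than WT in each comparison, none past the threshold, and Sema4d was not (-0.06 and -0.01).

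Groups that did not overlap were counted over all 68 genes. CAMK lay above WT in 8 (11.8%, against 9.22% of all genes tested) and below WT in 12 (17.6%, against 8.8%). CX3CL1-ct lay above WT in 4 (5.88%, against 4.67%), namely Sema6a, Sema4b, Sema4g and Efnb1, and below WT in 1, Epha7 (1.47%, against 1.38%). Efnb1 and Efnb2, transmembrane ephrins of progenitors and vessels, differed from WT by 0.43 and 0.48 in CX3CL1-ct (limma adjusted p = 0.274 and 0.284). Efnb2 read 10.1, 12.4 and 10.5 FPKM in WT, 15.1, 12.2 and 12.3 in CAMK, and 10.5, 17.3 and 19.2 as lowest, median and highest in CX3CL1-ct, whose libraries 1, 2 and 3 all read at least 17.7.

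The summed FPKM of 3 marker lists did not overlap between WT and the transgenic groups, with 2 lists higher and 1 lower than in WT. The neocortical list (9 of 9 markers in the table, none at 0 in every library) summed to 204 to 233 FPKM in WT, 328 to 493.2 in CAMK and 243 to 577 in CX3CL1-ct. The list of meninges and fibroblasts (12 of 12, none at 0 in every library) summed to 55.0 to 88.3, 92.2 to 102 and 96.4 to 204 FPKM, and the list of dividing cells (5 of 5, none at 0 in every library) to 37.9 to 44.8, 25.1 to 28.1 and 28.4 to 36.2. Single neocortical markers did not all share this order: 6 of 9 lay above WT in all CAMK libraries and 1 in all CX3CL1-ct libraries, and the mean log2(FPKM + 1) of the list in CX3CL1-ct 5 (4.01) was below that in WT 1 (4.10). The part of these lists in the differences from WT was not tested.

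The transgene itself was compared through CX3CL1-ct against CAMK, where both groups carry the driver. Unc5b, a netrin receptor also known from endothelium, read 2.04, 2.00 and 2.09 FPKM in CAMK and 2.15, 2.73 and 3.04 as lowest, median and highest in CX3CL1-ct, with WT at 2.86, 2.48 and 2.54. It was the 1 gene in which all CX3CL1-ct libraries lay above all CAMK libraries (1.47%, against 2.78% of all genes tested), by 0.25 (SE 0.096, limma adjusted p = 0.725). Robo4 was the 1 gene with the opposite order (1.47%, against 0.527%): CAMK read 2.25, 2.25 and 2.02 FPKM and CX3CL1-ct 1.57, 1.94 and 2.01 (difference -0.14, limma adjusted p = 0.813). Sema5b, a transmembrane semaphorin, read 5.21, 4.55 and 4.55 FPKM in CAMK and 4.70, 5.90 and 7.26 in CX3CL1-ct, so that the groups overlapped (difference 0.28, limma adjusted p = 0.729). Its WT values were 6.34, 7.14 and 6.28 FPKM, and CAMK was -0.40 from WT (limma adjusted p = 0.217). The receptors described above as lower than in WT, Dcc, Nrp1, Nrp2, Epha6 and Epha4, differed between CX3CL1-ct and CAMK by 0.03 (95% interval -0.19 to 0.24), 0.13 (-0.29 to 0.55), 0.17 (-0.10 to 0.44), -0.05 (-0.48 to 0.37) and -0.17 (-0.58 to 0.24).

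The 3 genes below the expression filter were compared with exact two-sided permutation tests, whose smallest possible p is 0.1 for 3 libraries against 3. Epha1, listed at 0 in 1 WT and 2 CX3CL1-ct libraries, read 0.025, 0.329 and 0.288 FPKM in CAMK and at most 0.099 elsewhere. CX3CL1-ct differed from CAMK in Epha1 by -0.22 (exact permutation p = 0.0476, adjusted p = 0.300 over the 9 tests of these genes). An exon of Epha1 overlaps Zyx on the other strand. For Epha2 and Unc5cl the exact permutation p was 0.0714 to 1.0.

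Some of the genes that varied most between libraries were highest where the markers of a neighbouring brain region were highest. Ntn1, the ligand of Dcc and the Unc5 receptors (chr11:68209364-68400823), read 2.20, 11.7 and 8.45 FPKM in WT, 2.57, 5.04 and 4.39 in CAMK, and 2.41, 3.58 and 9.02 as lowest, median and highest in CX3CL1-ct. The 3 highest values were those of WT 2, CX3CL1-ct 5 and WT 3. The same 3 libraries held the highest sums of the striatal list (15 of 15 markers in the table, none at 0 in every library), 317, 228 and 223 FPKM, while the other 9 libraries summed to 41.7 to 74.3. Ppp1r1b, a marker of striatal projection neurons, read 43.7, 27.9 and 29.3 FPKM in them and 3.31 to 7.84 in the rest. The difference in Ntn1 from WT was -0.57 in CAMK and -0.59 in CX3CL1-ct (limma adjusted p = 0.688 and 0.588), and the part of striatal RNA in it was not tested.

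Ntng1, a membrane-anchored netrin-G of thalamic axons (chr3:109780040-110144011), read 6.31, 7.21 and 7.66 FPKM in WT, 8.63, 19.2 and 16.3 in CAMK, and 9.86, 10.5, 9.27, 10.1, 13.3 and 5.83 in CX3CL1-ct 1 to 6. Its difference of 0.90 between CAMK and WT was the largest of the 68 genes (SE 0.27, limma adjusted p = 0.201). CAMK 2, CAMK 3 and CX3CL1-ct 5, the 3 libraries with the highest Ntng1, also had the highest sums of the thalamic list (9 of 9 markers, none at 0 in every library), 97.2, 78.6 and 111 FPKM against 35.7 to 45.4 in the rest. Tcf7l2, a thalamic transcription factor, read 23.0, 15.8 and 12.2 FPKM in them and 1.04 to 4.48 elsewhere. The part of thalamic RNA in the Ntng1 difference was not tested.

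Sema7a, a lipid-anchored semaphorin that binds Plxnc1 and integrins (chr9:57940112-57962865), read 19.2, 11.4 and 14.8 FPKM in WT, 25.7, 18.6 and 20.8 in CAMK, and 9.91, 17.7 and 32.6 as lowest, median and highest in CX3CL1-ct. Its highest libraries, CX3CL1-ct 6 and CAMK 1, had the highest sums of the neocortical list, 577 and 493.2 FPKM. Ntng2, Efna4 and Ephb6 were also highest in these 2 libraries: Ntng2 read 14.3 and 15.1 FPKM, Efna4 4.98 and 3.75, and Ephb6, an Eph receptor without kinase activity, 31.5 and 30.1. Below these 2 libraries the order did not hold for Sema7a: WT 1 read 19.2 FPKM at a neocortical sum of 233 FPKM. CX3CL1-ct 1 to 3 read less Sema7a, 17.7 to 18.1 FPKM, at higher sums of 356 to 366 FPKM. A single marker, Mef2c, made up 324 FPKM of the sum in CX3CL1-ct 6 and 272 FPKM in CAMK 1. The part of neocortical RNA in the levels of these genes was not tested.

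**Figure D4:**
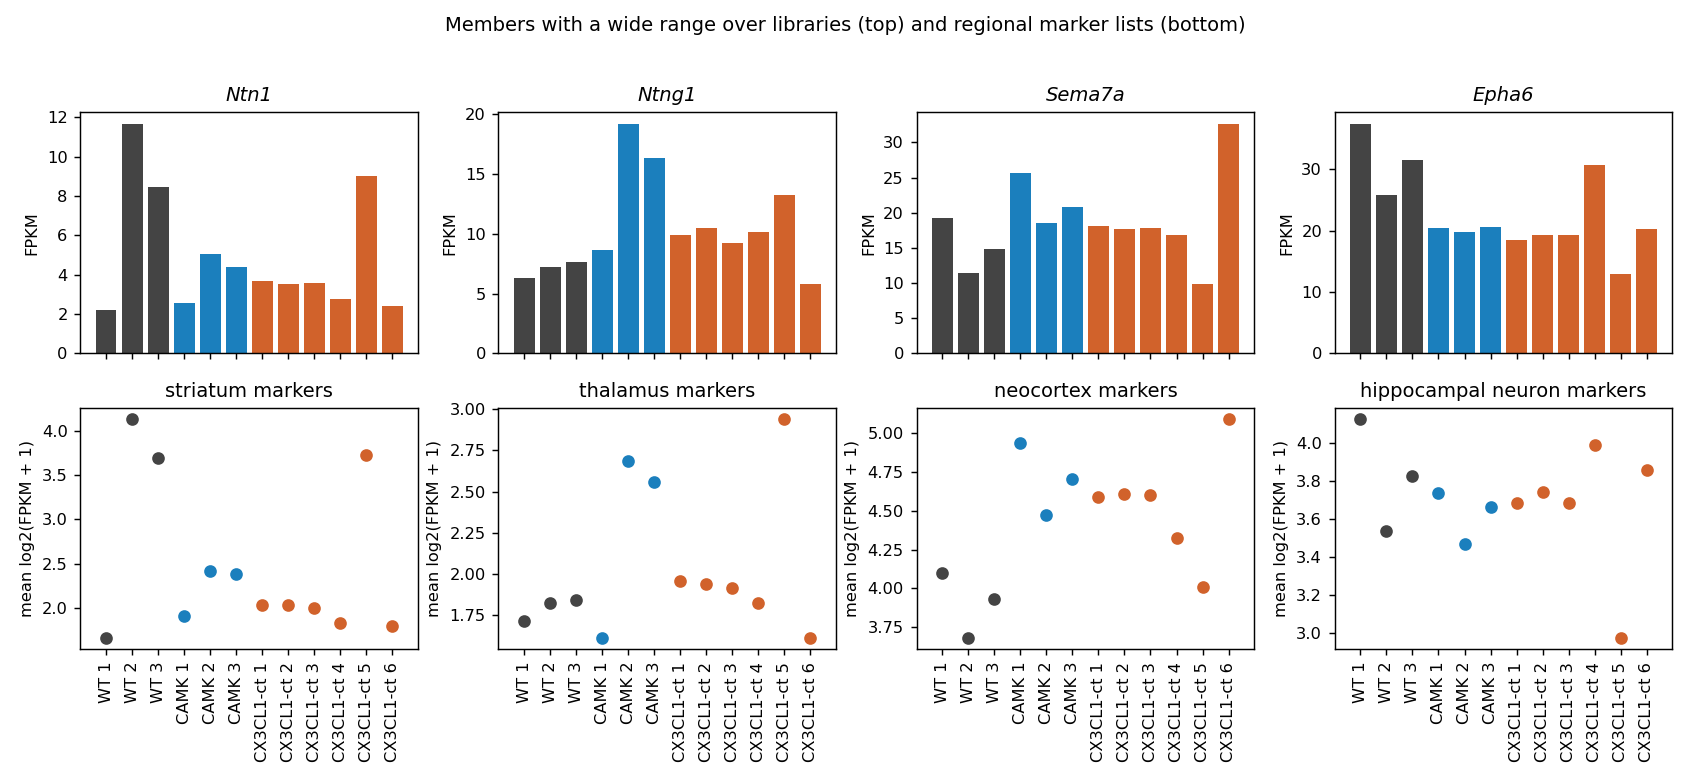
Top row: FPKM of Ntn1, Ntng1, Sema7a and Epha6 in each of the 12 libraries (bars, coloured by group). Bottom row: mean log2(FPKM + 1) of the striatal, thalamic, neocortical and hippocampal marker lists in the same libraries, where WT 2, WT 3 and CX3CL1-ct 5 stand out for Ntn1 with the striatal list, and CAMK 2, CAMK 3 and CX3CL1-ct 5 for Ntng1 with the thalamic list.

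The sequence just before the start of a gene is shown for Sema3e, Epha4 and Epha6, 1 ligand and 2 receptors whose means were lower in both transgenic groups than in WT. Each window holds the 250 bases before the start, 5′ to 3′ on the strand of the gene, from RefSeq on GRCm38.p6 (mm10): chr5:14025026-14025275 on the plus strand for Sema3e, chr1:77515089-77515338 on the minus strand for Epha4 and chr16:60605532-60605781 on the minus strand for Epha6. Capitals mark the GC box core GGGCGG, which binds factors of the Sp family, or CCGCCC where it lies on the other strand.
Sema3e: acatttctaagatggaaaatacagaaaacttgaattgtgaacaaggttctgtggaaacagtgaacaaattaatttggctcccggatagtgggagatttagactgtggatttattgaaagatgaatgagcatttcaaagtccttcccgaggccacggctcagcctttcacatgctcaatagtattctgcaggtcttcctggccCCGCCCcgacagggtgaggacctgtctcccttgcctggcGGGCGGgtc
Epha4: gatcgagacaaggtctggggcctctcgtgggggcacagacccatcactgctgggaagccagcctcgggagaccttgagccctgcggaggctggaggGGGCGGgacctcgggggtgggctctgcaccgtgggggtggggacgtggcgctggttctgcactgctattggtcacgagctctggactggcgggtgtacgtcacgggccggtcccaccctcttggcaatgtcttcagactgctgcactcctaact
Epha6: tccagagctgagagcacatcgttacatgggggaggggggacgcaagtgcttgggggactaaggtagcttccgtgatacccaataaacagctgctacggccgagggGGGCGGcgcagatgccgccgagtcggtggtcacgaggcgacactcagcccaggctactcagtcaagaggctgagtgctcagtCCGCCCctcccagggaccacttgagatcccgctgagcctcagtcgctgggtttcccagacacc
Sema3e and Epha6 held the core at 2 places and Epha4 at 1, and none of the 3 held TATAAA on either strand. Over the 61 guidance genes with a RefSeq window, 45 held the GC box core (73.8%, against 32.7% of all 32817 windows) and 2 held TATAAA (3.28%, against 12.4%). Their median GC content was 64.8%, against 52.4% over all windows. A match describes the letters of the window and is not a binding site.

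Downstream of the receptors, 54 of 55 listed effectors (such as kinases and collapsin response mediators) were tested. In CX3CL1-ct against CAMK 31 were higher and 23 lower (63.2% of all genes were higher), with none called and a median difference of 0.03 beside 0.04 over all genes. In CX3CL1-ct against WT 47 were higher and 7 lower (62.7% of all genes were higher, and the median was 0.09 beside 0.04). Of the 54, 1 was called (0.454% of all genes were): Pak1, a kinase activated by Rac and Cdc42, rose by 0.29 (limma adjusted p = 0.0420). In CAMK against WT 43 were higher and 11 lower (50.5% of all genes were higher, and the median was 0.10 beside 0.00) with none called. With the replicate block 2 effectors were called there, both higher (2.97% of all genes): Ablim1, an actin-binding protein, by 0.66 (limma adjusted p = 0.00497) and Farp1 by 0.43 (limma adjusted p = 0.0281). Of 51 other guidance cues and receptors, 45 were tested. Of these, 1 was called in CX3CL1-ct against WT, Plxdc2, a transmembrane protein with a plexin domain (0.48, limma adjusted p = 0.0349), and none in the other 2 comparisons without the block. With the block 4 were called in CAMK against WT, all higher: Plxdc2 (0.51), Rgma (0.56), Met (1.09) and Boc (0.80), with limma adjusted p of 0.0157 to 0.0442. Without the block the limma adjusted p of Plxdc2 there was 0.0570. Its difference between CX3CL1-ct and CAMK was -0.03 (limma adjusted p = 0.979). Met, Boc, Rgma, Ablim1 and Farp1 were highest in CAMK 1 and CX3CL1-ct 6, the libraries with the highest neocortical sums (493.2 and 577 FPKM). Met, for example, read 26.2 and 28.4 FPKM in them. Plxdc2 was instead highest in CX3CL1-ct 5 (13.5 FPKM). The part of neocortical RNA in these calls was not tested.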

How the data were processed

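RNA of 12 hippocampus libraries (3 WT, 3 CAMK, 6 CX3CL1-ct) was prepared with a stranded total RNA kit after ribosomal RNA was depleted and sequenced from both ends, per the labels' protocols. The authors deposited 1 table with an FPKM value for each of 29454 genes in each library. They used TopHat, Bowtie, Cuffdiff and Cufflinks and build mm10, per the submitters' processing notes. Tool versions, strand setting and scaling between libraries are not given in the sources used here.

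The deposited FPKM were used without rescaling as log2(FPKM + 1). Genes with at least 1 FPKM in at least 3 libraries (16503, among them 68 of the 71 members) entered limma 3.58.1 in R 4.3.3, as 1 model of 3 group means with a trended eBayes prior, two-sided, with Benjamini-Hochberg adjustment over these genes and a threshold of 0.05. The 3 other members were tested by exact permutation in Python 3.11.15 (numpy 2.4.6, pandas 2.3.3, scipy 1.17.1). The steps were tested on simulated data with independent libraries and known changes of 2-fold or more. Smaller changes, and libraries as alike as CX3CL1-ct 1 to 3, were not simulated. Gene positions and overlapping exons come from GENCODE M21 (mm10), which holds all 71 IDs under the same symbols.

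Replicate numbers occur in all 3 groups. Deviations of same-numbered CAMK and WT libraries from their group means correlated over genes by 0.236, 0.163 and 0.100, all over 0.1 though the last only just, so the blocked values stand beside that comparison. The deviations of a group sum to 0, so these 3 correlations are not independent of each other. CX3CL1-ct did not pair with CAMK (0.110, -0.130 and -0.0912) or WT (0.114, -0.0622 and 0.0106).

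The members, the marker and pathway lists and the tests were chosen with earlier results of these data known. Named are members past the threshold, the 10 with the smallest p in each comparison, the highest and lowest of each family, the 10 that vary most and the known partners of these. Alternatives were another pseudocount, no or a stricter filter, other scalings and priors, fewer libraries and the block.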

Additional observations from a re-analysis of the deposited data

Results flagged for a closer look

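Among the 6 CX3CL1-ct libraries, 1 library lay apart from the rest by Dixon's test at the 95% level in 8 of the 46 guidance genes that the naming rule picks. Chance flags about 1 in 20 independent groups. The 46 genes share the same 6 libraries and were named partly for varying widely or for small p-values, so 1 in 20 is not their expected share. The groups of 3 libraries were not checked.

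CX3CL1-ct 4 was the library apart in 3 of them. It was the highest for Dcc (18.3 FPKM) and for Nrp2 (46.2 FPKM), where it lay with the WT libraries, and the lowest for Robo2 (30.2 FPKM, the other 5 at 45.5 to 47.9), where WT read 24.6 to 39.7.

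CX3CL1-ct 5 was the library apart in 4 genes. It was the highest for Ntn1 (9.02 FPKM) and for Sema3a (10.7 FPKM, the other 5 at 5.05 to 7.08), and the lowest for Epha7 (27.9 FPKM) and for Robo4 (1.57 FPKM). CX3CL1-ct 6 was the highest for Sema7a (32.6 FPKM, the other 5 at 9.91 to 18.1).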

How the results depend on the processing

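The count of guidance genes past the threshold was 0 in all 3 comparisons with a pseudocount of 0.1, without a filter, with a filter of 5 FPKM, under both other scalings, with a robust prior and with only the 2 groups compared. It was also 0 under both alternatives chosen after seeing the data, CX3CL1-ct 1 to 3 averaged as 1 library, and WT 2, WT 3 and CX3CL1-ct 5 left out together. With the replicate block it was 1 in CX3CL1-ct against CAMK (Unc5d, lower), 8 in CX3CL1-ct against WT and 9 in CAMK against WT. The CX3CL1-ct libraries share only numbers with the others. Those numbered 4 to 6 have no partner and drop out of the blocked differences and spread. All 3 comparisons share that spread, so the blocked calls in CAMK against WT rest on it too. The 8 were Dcc, Epha4, Epha6, Nrp2, Sema3e, Slit2 and Slit3, all lower, and Efnb2, higher. Leaving out 1 library gave 0 to 4 in CX3CL1-ct against WT, 0 to 2 in CAMK against WT (2 without CX3CL1-ct 4, 1, Sema4g, without CX3CL1-ct 6) and 0 in CX3CL1-ct against CAMK. The calls in CAMK against WT came with unchanged differences, through the estimate of spread that all groups share. Why CX3CL1-ct 4 lay apart was not tested. Single members were followed only in 30 results, those with the smallest p, in equal number from each comparison. Of their 656 values under an alternative, 639 kept their direction and side of the threshold. The other 17 passed it with the same direction, and none turned. All 30 began short of the threshold. Some alternatives could not turn a direction, so this outcome was partly fixed beforehand. Without CX3CL1-ct 4, for example, CAMK against WT kept its difference (Sema4g 0.42 either way). The remaining members were not counted here. The table holds no counts, so how far depth limits the low genes is unknown, and 17 members share exon sequence with another gene.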

Other observations

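Among the 68 guidance genes tested, WT 3 held the middle value in 56, WT 1 in 6 and WT 2 in 6, and CAMK 3 held it in 47, CAMK 1 in 7 and CAMK 2 in 14. Among CX3CL1-ct 1, 2 and 3 the middle place was spread over the libraries (20, 28 and 20 genes). For Nrp1, for example, WT 1, WT 2 and WT 3 read 70.1, 46.7 and 58.2 FPKM, and for Robo2, a Slit receptor, they read 24.6, 39.7 and 35.3.

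Efna5, an ephrin-A ligand, was also uneven between libraries. It read 1.98, 4.30 and 3.60 FPKM in WT, 3.35, 6.11 and 5.94 in CAMK, and 1.99, 2.92 and 6.37 as lowest, median and highest in CX3CL1-ct. Its highest libraries, CX3CL1-ct 5, CAMK 2 and CAMK 3, also had the highest thalamic sums (111, 97.2 and 78.6 FPKM). CX3CL1-ct 6 came next with 5.60 FPKM of Efna5, but its thalamic sum was only 37.7 FPKM. The part of thalamic RNA in Efna5 was not tested. Unc5a, a netrin receptor, read 14.3, 7.35 and 9.80 FPKM in WT and 14.5, 7.94 and 10.7 in CAMK.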
